A study of Homo sapiens with 8 samples.

Results

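The genes of cholesterol and fatty acid synthesis were examined in OAW42-R cells, a cisplatin-resistant derivative of the ovarian cancer line OAW42, after transfection with siRNA against the long noncoding RNA UCA1. The list held 44 genes, chosen by name as members of the SREBP pathway and of sterol and fatty acid synthesis. Each was found through the RefSeq accession of its probes, and all 44 were present among the 22439 gene symbols on the array, with 56 probes in all. Of these 44 genes, 42 passed the filter on dim probes. SC5D, a late enzyme of cholesterol synthesis, and SCD5, a desaturase, had no probe well above background on any array and were not tested.

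Cells of both groups were transfected at 20 nM. The control group, sictrl, received a pool of nontargeting siRNAs, and the siUCA1 group received siRNAs number 2 and number 4 against UCA1 together. Each group comprised 4 arrays, which the labels name A1, M2, A2 and A3 in both groups and which the study's methods ascribe to independent experiments. No cisplatin is recorded for either group, and the time between transfection and RNA extraction is 24 h in the sample labels and 72 h in the study's methods. Because the siRNAs were mixed and no other siRNA was arrayed, an effect of one of their sequences and an effect of UCA1 loss cannot be told apart.

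Cholesterol is built from acetyl-CoA through mevalonate, squalene and lanosterol. Fatty acids are built from acetyl-CoA by acetyl-CoA carboxylase and fatty acid synthase, and are then elongated and desaturated. Both routes are controlled by the SREBP transcription factors, which SCAP escorts from the endoplasmic reticulum to the Golgi apparatus when sterols are low and which the INSIG proteins hold back when sterols are high. The LXR receptors respond to oxysterols and induce sterol export.

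All 8 arrays lay on 1 slide. Between 20858 and 24039 spots per array were well above background and no spot was saturated. Values are log2 processed signals relative to the 75th percentile of each array, so that 0 is the level of that percentile. UCA1 itself was 8.35, 8.37, 8.60 and 7.48 on the sictrl arrays (A1, M2, A2 and A3, the order used throughout) and 3.68, 2.59, 3.02 and 3.34 on the siUCA1 arrays. The target of the siRNAs fell by 5.04 on this scale (adjusted p = 0.000122, standard error 0.29), with all siUCA1 arrays below all sictrl arrays. Of 8 markers of ovarian carcinoma epithelium, 7 were detected on all 8 arrays and MUC16 on none. Of these, CDH1 (E-cadherin) was called lower in siUCA1 (log2 fold change -0.81, adjusted p = 0.0149) and the other 6 were not called. None of 5 fibroblast or 3 hepatocyte markers passed the filter, nor did the leukocyte markers PTPRC and CD3E or the adipocyte markers ADIPOQ and PLIN1. CD14, a monocyte marker, was dim but detected on all arrays and called higher (0.70, adjusted p = 0.0478). The adipocyte marker CIDEC also passed the filter and was not called. Because RNA was measured in bulk, fewer cells of a type and less RNA per cell cannot be told apart.

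The sictrl array of A3 and the siUCA1 array of A1 stood apart from the rest. The trend in brightness over the array surface that Feature Extraction fitted and removed had a root mean square of 0.321 and 0.287 on them, against 0.0737 to 0.0943 on the other 6. On these arrays the member genes lay 0.266 and 0.311 on average from their group mean, against 0.111 to 0.161 on the other arrays. Where a single value on these arrays stood far from its group, the difference is also given without them.

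The comparison of siUCA1 with sictrl used the moderated test of limma, run over 15456 genes or unnamed transcripts, and a gene was called when its Benjamini-Hochberg adjusted p was under 0.05. Of the 42 tested members, 5 were called, and all 5 were higher in siUCA1: SREBF2 and NR1H3 among the regulators, HMGCS1 and MSMO1 in cholesterol synthesis, and ELOVL6 in fatty acid elongation. This is 11.9% of the members, against 11.6% of all genes tested, so the share called was near the background. By direction, 5.72% of all genes were called higher and 5.85% lower, and no member was called lower. ELOVL6 passed the filter only through siUCA1, where it was high. With detection on all 8 arrays required, 4 of 39 members were called, beside 1738 of 14144 genes. With the replicate name as a block, 3 members were called, beside 1727 of all genes, and SREBF2 and MSMO1 lost their calls. With the arrays scaled to their median in place of the 75th percentile, 114 genes were called higher and 421 lower, against 884 and 904, and 1 member, ELOVL6, was called.

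The members differed by small amounts. Their log2 fold changes ran from -0.46 to 0.96 with a median of 0.066, beside a median of 0.030 over all genes, and the median size of the difference was 0.23 against 0.20. Positive values were found for 28 members and negative ones for 14. The groups did not overlap, with every siUCA1 array above every sictrl array, for 10 members (23.8%), against 11.2% of all genes. The opposite separation was found for no member and for 9.67% of all genes. An unadjusted p under 0.05 with a higher value in siUCA1 was found for 12 members (28.6%) against 14.5% of all genes, and with a lower value for 1 member, FADS1, against 13.1%. The median over members was -0.030 with median scaling, beside -0.065 over all genes. When 1 array was left out, it ran from 0.023 (without sictrl M2) to 0.093 (without sictrl A3), beside 0.031 and 0.036 over all genes. Of these fits, only the one without sictrl M2 put it below the median over all genes.

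**Figure D1:**
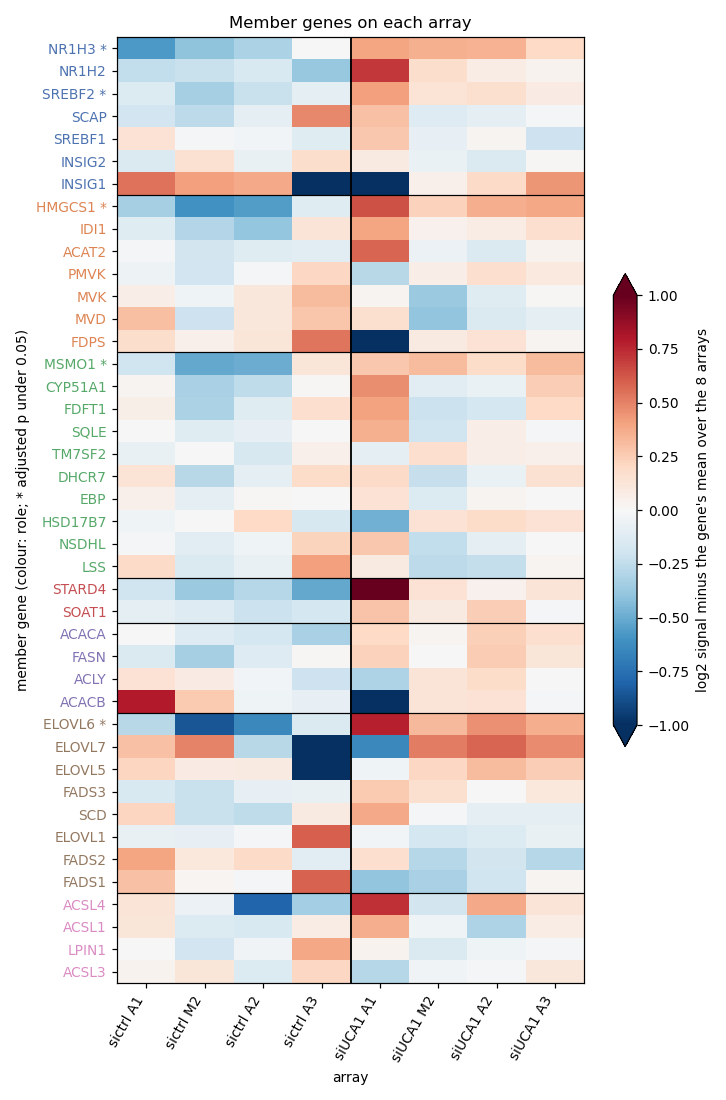
Heat map of the 42 tested member genes (vertical axis, grouped and coloured by role) on the 8 arrays (horizontal axis), coloured by the log2 signal minus the gene's mean over the arrays, with an asterisk for an adjusted p under 0.05. The 5 called genes are red on the 4 siUCA1 arrays, and all 6 values more than 1 log2 unit from their gene's mean fall on sictrl A3 and siUCA1 A1.

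**Figure D2:**
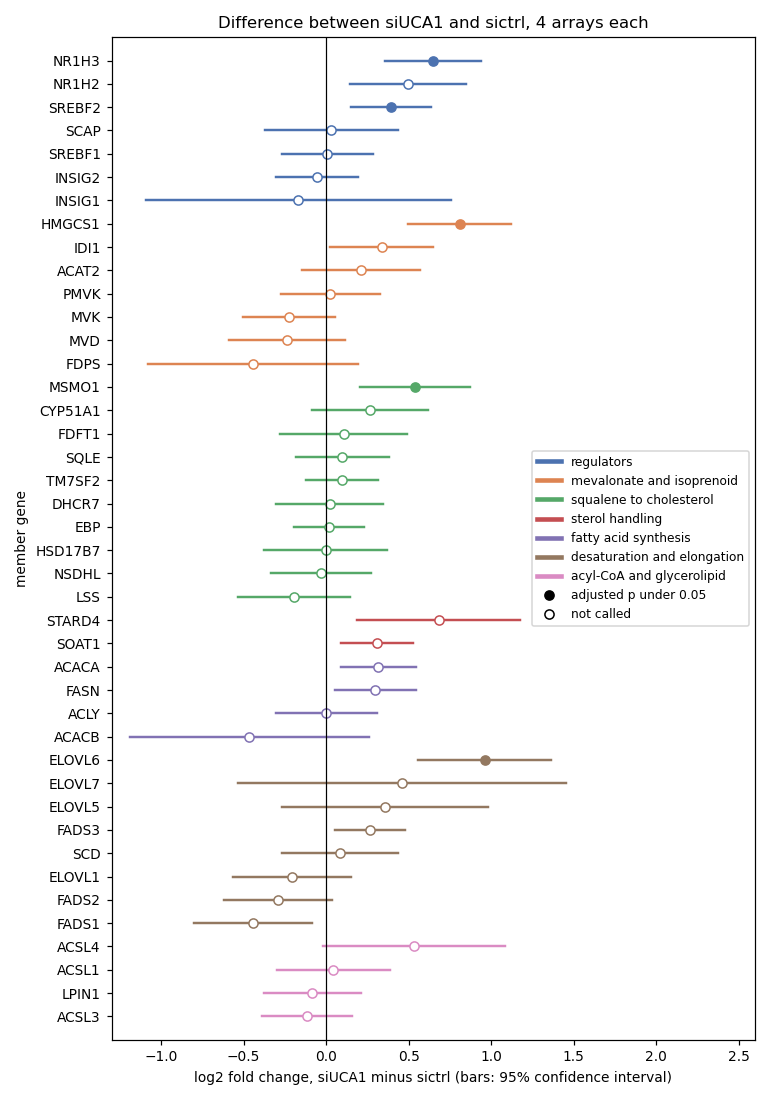
Log2 fold change of each tested member gene (horizontal axis, siUCA1 minus sictrl, n = 4 arrays each) with its 95% confidence interval, grouped by role; filled points have an adjusted p under 0.05. All 5 filled points lie to the right of 0, between 0.39 and 0.96, while the interval of 29 of the other 37 members includes 0.

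Of the 7 regulators, 2 were called higher and none lower. SREBF2 encodes SREBP2, the form that mainly drives cholesterol synthesis. Its signal was 4.25, 4.05, 4.16 and 4.29 in sictrl and 4.80, 4.52, 4.54 and 4.47 in siUCA1. Every siUCA1 array was above every sictrl array, a 1.31-fold difference (log2 fold change 0.39, standard error 0.11, adjusted p = 0.0463). SREBF1, which encodes the forms that mainly drive fatty acid synthesis, did not show this separation. It was 5.25, 5.09, 5.08 and 4.99 in sictrl and 5.38, 5.03, 5.14 and 4.90 in siUCA1, a difference of 0.0082 with a 95% confidence interval from -0.27 to 0.29, and its dimmer second probe gave 0.025. The mRNA level was measured here, not the cleavage that activates these proteins. With the replicate name as a block, SREBF2 was not called (adjusted p = 0.0609).

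SREBF2 was the only called member whose promoter held an exact match to the core of the sterol regulatory element searched here. Variant forms of the element would be missed by this search. Promoters were read from RefSeq (GRCh38.p14), as the 250 bases before and 50 bases after each transcription start, for 40 of the 44 members, with none in the table for FDFT1, SQLE, ACAT2 and FASN. They were searched on both strands for the core of the sterol regulatory element (TCACNCCAC), the E-box (CACGTG) and the NF-Y box (CCAAT), and the 250 bases upstream of the start are shown for SREBF2, HMGCS1, MSMO1 and ELOVL6, with matches to any of the 3 in capitals. The SREBF2 match lies 133 to 125 bases before the start, with an NF-Y box, read on the opposite strand, 106 to 102 bases before it (chr22:41832855-41833104, plus strand).
SREBF2: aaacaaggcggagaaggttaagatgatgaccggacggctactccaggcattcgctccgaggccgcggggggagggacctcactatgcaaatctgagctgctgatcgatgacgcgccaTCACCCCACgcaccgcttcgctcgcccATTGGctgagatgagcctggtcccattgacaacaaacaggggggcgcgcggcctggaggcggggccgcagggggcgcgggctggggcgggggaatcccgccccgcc

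Of the 42 tested members, 38 had a promoter in the table, as did 9516 of all genes tested. The core of the sterol regulatory element was found in 2 of these members, SREBF2 and ACSL1 (5.26%), against 1.47% of the tested genes. The E-box was found in 4 members (10.5%) against 12.7%. The NF-Y box, the site of a factor that cooperates with SREBP, was found in 27 members (71.1%) against 43.7%, and in 4 of the 5 called members. The Sp1 box (GGGCGG), not capitalised here, was found in 36 members (94.7%) against 77.0%. The letters are a description of the sequence, and binding was not measured. Genes with several starts were counted once if any start had a match. The called member NR1H3 had 4 starts in the table, of which 1 had an NF-Y box, 28 to 24 bases before the start on the opposite strand.

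The LXR receptor genes gave the other large values among the regulators. NR1H3, which encodes LXR-alpha, was 1.73, 1.91, 2.00 and 2.30 in sictrl and 2.70, 2.67, 2.66 and 2.51 in siUCA1. The groups did not overlap, and the difference was 1.57-fold (log2 fold change 0.65, standard error 0.13, adjusted p = 0.0158). NR1H2, which encodes LXR-beta, was 2.06 to 2.28 in sictrl and 2.47 to 3.14 in siUCA1. The groups did not overlap, but the difference of 0.50 was not called (adjusted p = 0.0727). Its highest value was on siUCA1 A1. Without sictrl A3 and siUCA1 A1 the difference was 0.30 (adjusted p = 0.0332).

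INSIG1, which retains SCAP in the endoplasmic reticulum and is itself an SREBP target, had the widest spread of the regulators. Its signal was 2.05, 1.91, 1.89 and 0.51 in sictrl and 0.48, 1.56, 1.70 and 1.95 in siUCA1. One array of each group was thus more than 1 log2 unit below all the others, and these were the arrays with the large surface trend. The difference was -0.17 with an interval from -1.09 to 0.76, and without both arrays it was -0.21 (adjusted p = 0.220). With the remaining surface trend removed, INSIG1 was still 0.77 on sictrl A3 and 0.82 on siUCA1 A1, against 1.45 to 1.97 elsewhere. INSIG1 was read by 1 spot per array. INSIG2 (-0.053) and SCAP (0.031) were not called.

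**Figure D3:**
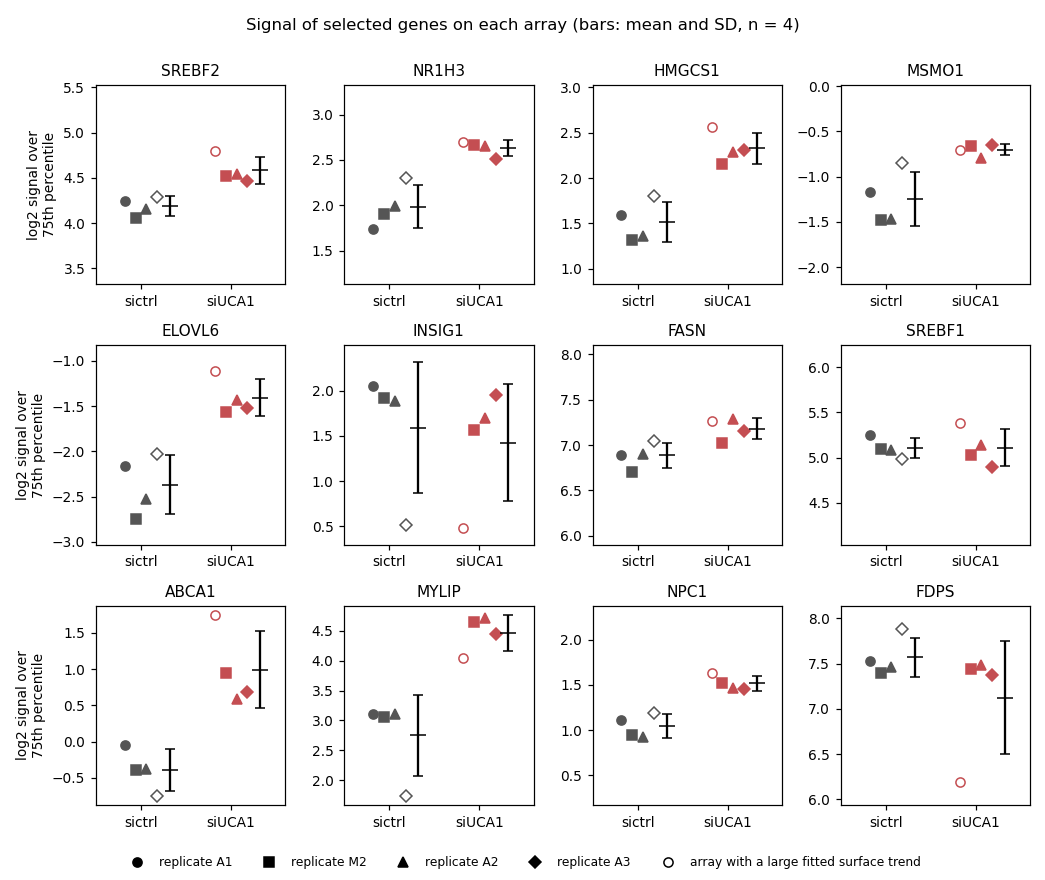
Log2 signal over the array's 75th percentile (vertical axis) of 12 genes on each array, for sictrl (grey) and siUCA1 (red), with the mean and SD of 4 arrays; open symbols mark the arrays with the large surface trend. SREBF2, NR1H3, HMGCS1, MSMO1, ELOVL6, ABCA1, MYLIP and NPC1 have all siUCA1 arrays above all sictrl arrays, and the open symbols of INSIG1 lie near 0.5 while the filled ones lie between 1.56 and 2.05.

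Of the 7 genes of the mevalonate and isoprenoid steps, 1 was called. HMGCS1, cytosolic HMG-CoA synthase, makes the substrate of the rate-limiting step of cholesterol synthesis. It was 1.59, 1.32, 1.36 and 1.80 in sictrl and 2.56, 2.15, 2.28 and 2.31 in siUCA1. The groups were well separated, and the difference was 1.75-fold (log2 fold change 0.81, standard error 0.14, adjusted p = 0.00921), the smallest adjusted p of the members. Upstream of the first of its 2 starts in the table lay a pair of NF-Y boxes on the opposite strand, 155 to 151 and 100 to 96 bases before the start (chr5:43313413-43313662, minus strand).
HMGCS1: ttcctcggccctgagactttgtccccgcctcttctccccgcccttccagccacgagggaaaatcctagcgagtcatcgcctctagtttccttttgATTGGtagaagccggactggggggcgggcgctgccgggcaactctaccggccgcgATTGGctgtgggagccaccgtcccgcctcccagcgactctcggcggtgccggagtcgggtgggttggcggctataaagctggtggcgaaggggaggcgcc

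The other mevalonate genes had values on both sides of 0 and none was called. IDI1, isopentenyl diphosphate isomerase, differed by 0.34 (adjusted p = 0.150) and ACAT2, cytosolic thiolase, by 0.21. ACAT2 was 6.35 on siUCA1 A1 against 5.62 to 5.80 on the other siUCA1 arrays, and its difference was 0.050 without siUCA1 A1. PMVK, phosphomevalonate kinase, differed by 0.026. Mevalonate kinase MVK (-0.23) and the decarboxylase MVD (-0.24) had adjusted p of 0.278 and 0.358. FDPS, farnesyl diphosphate synthase, differed by -0.44 (adjusted p = 0.349), by -0.13 without siUCA1 A1 and by -0.030 without sictrl A3 and siUCA1 A1. On siUCA1 A1, FDPS was 6.20 against 7.37 to 7.49 on the other siUCA1 arrays and 7.40 to 7.88 in sictrl.

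From squalene to cholesterol, 10 of 11 genes were tested and 1 was called. FDFT1, squalene synthase, the first enzyme committed to sterols, was 5.88, 5.50, 5.69 and 5.98 in sictrl and 6.22, 5.61, 5.64 and 6.02 in siUCA1. The groups overlapped, with a difference of 0.11 and an interval from -0.28 to 0.49. MSMO1, the methylsterol monooxygenase that removes the C4 methyl groups, was -1.17, -1.48, -1.46 and -0.85 in sictrl and -0.70, -0.66, -0.79 and -0.65 in siUCA1. Every siUCA1 array was above every sictrl array, with a 1.45-fold difference (log2 fold change 0.54, standard error 0.15, adjusted p = 0.0473). Its probe was dim, below the 75th percentile on all arrays, and with normexp background correction the difference was 0.29 (adjusted p = 0.268). With the replicate name as a block, MSMO1 was not called (adjusted p = 0.0558). Its upstream sequence held 4 NF-Y boxes, at 185 to 181 bases before the start on the opposite strand and at 139 to 135, 76 to 72 and 34 to 30 on the gene's strand (chr4:165327419-165327668, plus strand).
MSMO1: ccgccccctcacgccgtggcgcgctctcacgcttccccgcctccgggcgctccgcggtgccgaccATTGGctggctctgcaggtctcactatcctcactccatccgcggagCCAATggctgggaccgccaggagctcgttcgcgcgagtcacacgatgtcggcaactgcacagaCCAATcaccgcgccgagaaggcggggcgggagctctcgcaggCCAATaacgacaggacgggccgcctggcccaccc

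None of the other enzymes of this stretch was called. CYP51A1, lanosterol demethylase, differed by 0.27 (adjusted p = 0.305). SQLE, squalene epoxidase, differed by 0.098, the sterol reductase TM7SF2 by 0.095, DHCR7, which catalyses the last step of one branch, by 0.022 and the isomerase EBP by 0.018. NSDHL, which acts after MSMO1 on the same C4 methyl groups, differed by -0.031 with an interval from -0.33 to 0.27. LSS, lanosterol synthase, differed by -0.19 (adjusted p = 0.450). HSD17B7, a sterol reductase with a closely related pseudogene, differed by -0.0017 on its brightest probe (0.11 without sictrl A3 and siUCA1 A1) and by 0.14 and 0.12 on the other two, and whether the probes tell the gene from its copy was not tested.

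Neither gene of sterol handling was called, although both had non-overlapping groups. STARD4 carries cholesterol between membranes. It was 0.19, 0.021, 0.11 and -0.12 in sictrl and 1.44, 0.54, 0.43 and 0.52 in siUCA1, with siUCA1 A1 far above the rest (difference 0.68, adjusted p = 0.0788). Without sictrl A3 and siUCA1 A1 the difference was 0.39 (adjusted p = 0.0168), and without siUCA1 A1 alone STARD4 was also called. SOAT1, which esterifies cholesterol for storage, was 1.16 to 1.28 in sictrl and 1.37 to 1.66 in siUCA1 (0.31, adjusted p = 0.0765).

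None of the 4 genes of fatty acid synthesis was called. ACLY, which makes cytosolic acetyl-CoA from citrate, was 3.18, 3.12, 3.01 and 2.83 in sictrl and 2.73, 3.17, 3.22 and 3.03 in siUCA1. The groups overlapped fully, with a difference of 0.0020 and an interval from -0.30 to 0.31. FASN, fatty acid synthase, was 6.89, 6.70, 6.90 and 7.05 in sictrl and 7.26, 7.03, 7.29 and 7.15 in siUCA1. The groups overlapped, since 1 siUCA1 array lay below the highest sictrl array (0.30, adjusted p = 0.113). ACACA, the acetyl-CoA carboxylase of the cytosol, was 5.30 to 5.63 in sictrl and 5.66 to 5.86 in siUCA1. Its groups did not overlap (0.32, adjusted p = 0.0786), and its dimmer second probe gave 0.17. ACACB, the mitochondrial form, differed by -0.46 (adjusted p = 0.389). It was -2.19 on siUCA1 A1, where it was not well above background, and the difference was -0.15 without that array and -0.25 without sictrl A3 and siUCA1 A1.

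Of the desaturases and elongases, 8 of 9 were tested and 1 was called. ELOVL6, which extends palmitate towards stearate, had the highest fold change of all members in the main fit. It was -2.17, -2.75, -2.53 and -2.03 in sictrl and -1.11, -1.56, -1.43 and -1.52 in siUCA1. The groups did not overlap, with a 1.95-fold difference (log2 fold change 0.96, standard error 0.18, adjusted p = 0.0121). The probe was among the dim ones, and 1 of the 4 sictrl arrays did not read it well above background, whereas all 4 siUCA1 arrays did. ELOVL6 was therefore tested only through siUCA1, the group where it was high, and its sictrl level is uncertain. With normexp background correction the value was 0.33 (adjusted p = 0.229), below the 0.71 of HMGCS1, so the rank did not hold. The upstream sequence of ELOVL6 held none of the 3 motifs (chr4:110198616-110198865, minus strand).
ELOVL6: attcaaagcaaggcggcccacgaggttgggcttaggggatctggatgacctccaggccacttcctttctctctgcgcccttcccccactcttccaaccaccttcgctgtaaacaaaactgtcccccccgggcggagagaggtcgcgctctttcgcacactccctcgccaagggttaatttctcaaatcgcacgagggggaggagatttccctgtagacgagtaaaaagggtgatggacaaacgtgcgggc

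The other elongases varied with single arrays. ELOVL5, which extends polyunsaturated fatty acids, was 1.32 on sictrl A3 and 2.51 to 2.64 on the other sictrl arrays, against 2.38 to 2.74 in siUCA1 (0.36, adjusted p = 0.441). Its second probe gave 0.33, and without sictrl A3 the difference was 0.050. ELOVL7 was 0.44 on sictrl A3 and 1.22 on siUCA1 A1, and 1.59 to 2.45 on the other 6 arrays (0.46, adjusted p = 0.542), with a difference of 0.062 without sictrl A3 and 0.35 without both. ELOVL1, which acts on very long chains, was 5.19 on sictrl A3 and 4.42 to 4.58 on all other arrays (-0.21, adjusted p = 0.438), and the difference was -0.069 without sictrl A3 and siUCA1 A1.

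The desaturases had values in both directions. SCD, which makes oleate from stearate, was 2.17, 1.73, 1.70 and 2.05 in sictrl and 2.34, 1.94, 1.86 and 1.87 in siUCA1. The groups overlapped, with a difference of 0.087, an interval from -0.26 to 0.44 and a difference of 0.019 without sictrl A3 and siUCA1 A1. FADS1 and FADS2 encode the delta-5 and delta-6 desaturases of polyunsaturated fatty acids. FADS1 was 5.47 to 6.07 in sictrl and 5.09 to 5.51 in siUCA1 (-0.44, adjusted p = 0.107), and FADS2 was 5.88 to 6.38 and 5.70 to 6.15 (-0.29, adjusted p = 0.227). The groups overlapped for both. Without sictrl A3 and siUCA1 A1, FADS2 was called lower (-0.48, adjusted p = 0.0151) and FADS1 was not (-0.26, adjusted p = 0.173). FADS3, a related desaturase, had non-overlapping groups in the opposite direction (0.27, adjusted p = 0.102).

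None of the acyl-CoA synthetases, nor LPIN1, a phosphatidate phosphatase, was called. ACSL3, which activates fatty acids, was 2.30, 2.38, 2.12 and 2.47 in sictrl and 1.97, 2.23, 2.24 and 2.37 in siUCA1. The groups overlapped (-0.12, interval from -0.39 to 0.15). ACSL1 differed by 0.044 and LPIN1 by -0.082. ACSL4, which prefers arachidonate, was dim and differed by 0.53 (adjusted p = 0.194), ranging from -2.58 to -1.65 in sictrl and from -1.96 to -1.05 in siUCA1.

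The calls of the members depended on the arrays and on the processing. HMGCS1 was called in all 8 fits that left out 1 array, and NR1H3 in 4 of the 8. ELOVL6 was also called in all 8, but it had passed the filter only through siUCA1, where it was high. The filter was not redone in these fits. SREBF2 and MSMO1 were each called in 1 of the 8, the fit without sictrl A3. With normexp background correction only NR1H3 was called of the 5 (adjusted p = 0.0333), and HMGCS1 (0.71, adjusted p = 0.0845) and ELOVL6 (adjusted p = 0.229) were not. With median scaling only ELOVL6 was called (adjusted p = 0.0295), and HMGCS1 was not (adjusted p = 0.0573). With no detection filter none of the 5 was called by limma (adjusted p from 0.145 to 0.530). With the slide row as a block, SREBF2 (adjusted p = 0.0766) and MSMO1 (adjusted p = 0.0544) were no longer called, nor were they with the replicate name as a block (adjusted p = 0.0609 and 0.0558). Within the first row of the slide SREBF2 differed by 0.52 and within the second by 0.26, and MSMO1 by 0.80 and 0.29. The direction of the 5 differences was the same in all 25 settings tried, or in all 24 for ELOVL6, which left the table when detection on all 8 arrays was required. Without sictrl A3 and siUCA1 A1, 9 members (21.4%) were called, against 25.6% of all genes: the same 5 with NR1H2, IDI1 and STARD4 higher, and FADS2 lower. Testing every kept probe, which called 11.5% of 19047 probes, gave the same 5 members. Each of the 5 was read by 1 probe, so testing every probe or averaging probes could not change their fold changes. The table deposited for the series held the same values, so using it could not change them either. These settings are among the 25.

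**Figure D4:**
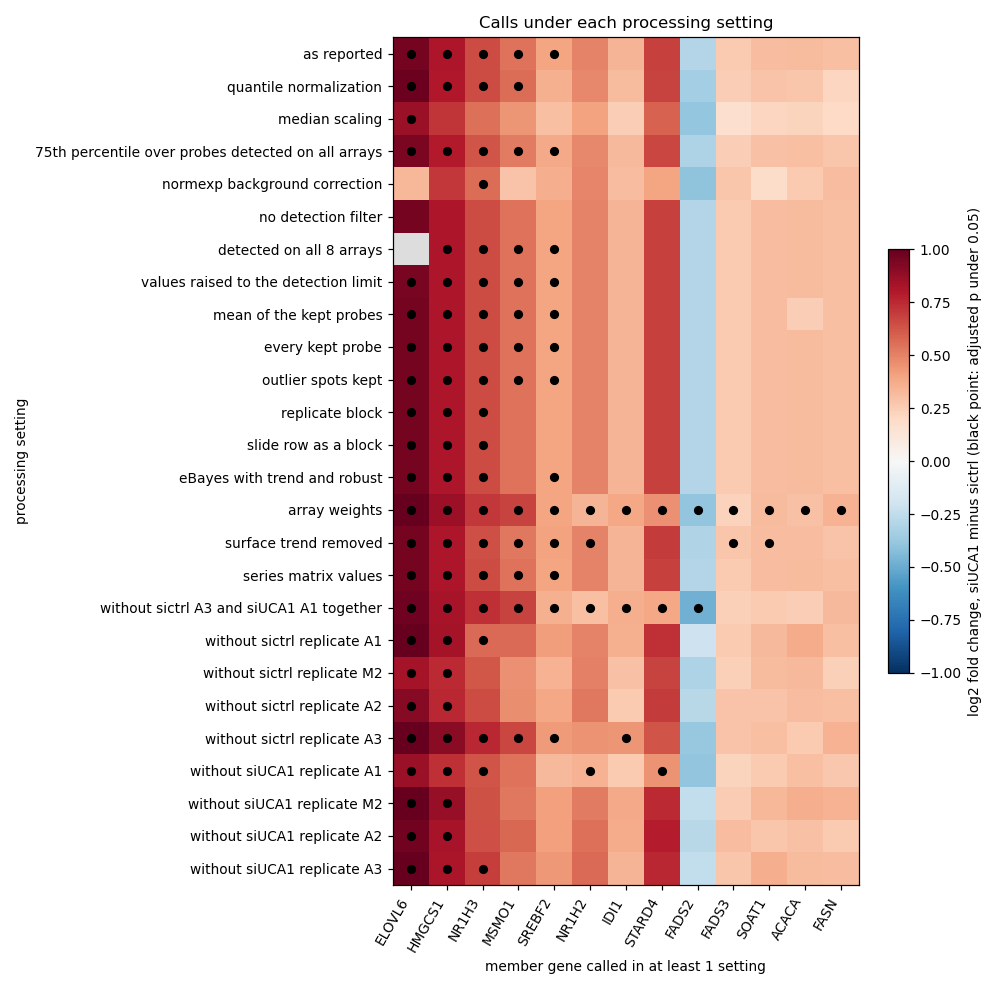
Log2 fold change (colour, siUCA1 minus sictrl) of the 13 member genes called in at least 1 setting (horizontal axis) under each processing setting (vertical axis); black points mark an adjusted p under 0.05, and grey marks a gene not tested. ELOVL6 and HMGCS1 are called in every fit that leaves out 1 replicate, and FADS2 is the only one of the 13 with negative values.

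Other lipid genes were read from lists beside the members. Of 20 genes that process SREBP or degrade INSIG, 1 was called higher and 1 lower (10.0%, against 11.6% of all genes), and both encode coat proteins of the COPII vesicles that carry SCAP and many other cargoes. SEC23A was 3.19 to 3.51 in sictrl and 4.03 to 4.33 in siUCA1 (0.83, standard error 0.11, adjusted p = 0.00386). SEC24C was 6.80 to 6.96 in sictrl and 6.29 to 6.36 in siUCA1 (-0.59, standard error 0.083, adjusted p = 0.00491).

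Of 15 LXR targets and genes of sterol transport, 3 were called higher and 1 lower, which is 26.7% called, against 11.6% of all genes, and their median was 0.10 against 0.030. Positive values were found for 8 of them and negative ones for 7. Of the 17 genes listed, ABCG1 was well above background on no array and GRAMD1B on 2, so neither was tested. LXR activity was not measured. ABCA1, the LXR-induced exporter of cholesterol, was -0.048, -0.39, -0.37 and -0.75 in sictrl and 1.75, 0.95, 0.60 and 0.68 in siUCA1. The groups were separated, with a 2.61-fold difference (log2 fold change 1.38, standard error 0.26, adjusted p = 0.0127), and it was 1.01 without sictrl A3 and siUCA1 A1 and 0.86 with normexp (adjusted p = 0.0237). MYLIP, an LXR-induced ubiquitin ligase, was 3.10, 3.07, 3.10 and 1.74 in sictrl and 4.05, 4.64, 4.72 and 4.45 in siUCA1. It was 3.28-fold higher (1.71, standard error 0.31, adjusted p = 0.0119), and 1.52 without those arrays. NPC1, which moves cholesterol out of lysosomes, was 0.92 to 1.19 in sictrl and 1.46 to 1.63 in siUCA1 (0.47, adjusted p = 0.0190). The sterol transporter gene GRAMD1A was called lower on its brightest probe (-0.37, adjusted p = 0.0326), but the mean of its kept probes was 0.063.

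In the remaining lists the share called was 7.69% (isoprenoid branch), 6.25% (other fatty acid synthesis), 9.52% (oxidation) and 12.5% (glycerolipids), against 11.6% of all genes. Of 13 genes of the isoprenoid branch, PDSS2, a subunit of the synthase of the ubiquinone side chain, was called higher on its brightest probe (0.45, adjusted p = 0.0166), but the mean of its kept probes was 0.18 (adjusted p = 0.244). Of 16 other genes of fatty acid synthesis and elongation, MLX, a partner of the carbohydrate response factors, was called lower on its brightest probe (-0.48, adjusted p = 0.0326), and the mean of its kept probes was -0.36 (adjusted p = 0.0607). Of 21 genes of fatty acid oxidation, ETFDH, which passes electrons to ubiquinone, was called higher (0.38, adjusted p = 0.0187) and the nuclear receptor gene PPARD lower (-0.84, adjusted p = 0.00535). Of 16 genes of glycerolipids and lipid droplets, CDS2, which makes CDP-diacylglycerol, was called higher (0.32, adjusted p = 0.0437) and DGAT1, which makes triglycerides, lower (-0.56, adjusted p = 0.00966). Of the 12 genes called in these lists and the 2 before them, SEC23A, SEC24C, ABCA1, MYLIP, PPARD and DGAT1 were called in all 8 fits that left out 1 array. PDSS2 was called in 6 of the 8, ETFDH in 5, NPC1 in 4, GRAMD1A in 3, and MLX and CDS2 in 2 each. With normexp, SEC23A, ABCA1, MYLIP and PPARD kept their calls, and with median scaling ABCA1, MYLIP and PPARD did. The medians of the isoprenoid, fatty acid and glycerolipid lists lay between 0.029 and 0.095, beside 0.030 over all genes.

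**Figure D5:**
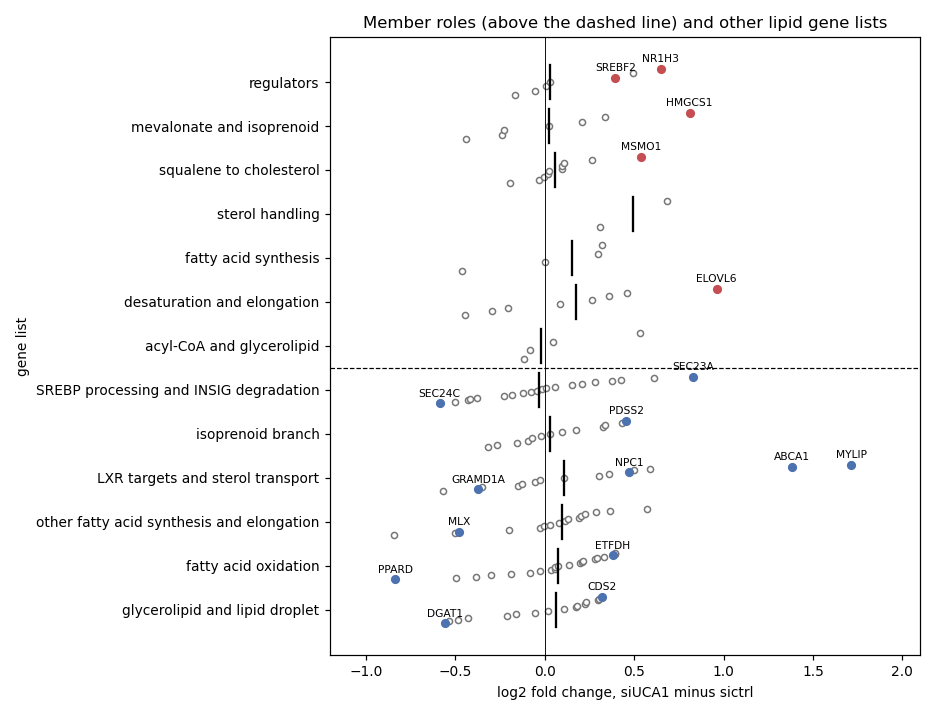
Log2 fold change (horizontal axis, siUCA1 minus sictrl, n = 4 arrays each) of the tested genes of each member role, above the dashed line, and of the other lipid lists, below it; filled and named points have an adjusted p under 0.05 and short vertical bars are list medians. MYLIP and ABCA1, at 1.71 and 1.38, lie beyond all member genes, whose highest value is 0.96.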

How the data were processed

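RNA of OAW42-R cells was hybridised to 8 Agilent arrays in 1 colour. The authors deposited Feature Extraction 10.7.3.1 output, per the file headers, with a processed signal per spot: a linear intensity, background-subtracted and detrended over the surface, not normalized between arrays. The table deposited for the series held the same intensity values. The study's methods name limma and Benjamini-Hochberg correction. Here, log2 intensity minus the array's 75th percentile was computed in R 4.3.3 with limma 3.58.1 and data.table (1.17.8), without control and outlier spots, and averaged per probe. Probes well above background on all 4 arrays of a group were kept, and the brightest kept probe stood for the gene, named through RefSeq GRCh38.p14. Groups followed the sample labels. The fit (lmFit, eBayes, no covariate) was tested on simulated data. The two-sided exact permutation test of a single gene cannot go below p = 0.0286 with 4 against 4 arrays. Named are UCA1, all members, up to 4 called genes of each other lipid list, and cell type markers. Members and lists were chosen with earlier results of these data known. Alternatives were scaling, background correction, filters, probe choice, blocks, array weights, removal of remaining surface trend and left-out arrays. The small number of arrays limits precision. Figures used matplotlib 3.10.9 in Python 3.11.15.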

Additional observations from a re-analysis of the deposited data

Results flagged for a closer look

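Of 112 sets of 4 arrays checked, over UCA1, the members, the called genes of the other lipid lists and the surface trend, 12 held 1 array far from the other 3 of its group by Dixon's criterion, which chance passes in about 1 set in 20. All 12 fell on the same pair of arrays, 5 on sictrl A3 and 7 on siUCA1 A1.

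The root mean square of the surface trend was 0.321 for sictrl A3 and 0.287 for siUCA1 A1. On sictrl A3, INSIG1 was 0.51 against 1.89 to 2.05 on the other sictrl arrays, ELOVL5 was 1.32 against 2.51 to 2.64, MYLIP was 1.74 against 3.07 to 3.10, and ELOVL1 was 5.19 against 4.52 to 4.58. On siUCA1 A1, FDPS was 6.20 against 7.37 to 7.49 on the other siUCA1 arrays, ACACB was -2.19 against -1.03 to -0.87, and HSD17B7 was 0.24 against 0.87 to 0.91. ELOVL7 was 1.22 there against 2.34 to 2.45, STARD4 was 1.44 against 0.43 to 0.54, and SCD was 2.34 against 1.86 to 1.94. With the remaining surface trend removed, FDPS was 6.67 on siUCA1 A1 against 7.20 to 7.34, and ELOVL5 was 1.31 on sictrl A3 against 2.48 to 2.66. The part of the surface trend in these values was not tested further.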

How the results depend on the processing

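UCA1 remained lower and called in all 25 settings. For all genes tested, 1788 calls became 535 with median scaling, 380 with normexp background correction, 76 with no detection filter, 4802 with array weights and 3957 without sictrl A3 and siUCA1 A1 together, and they ranged from 764 (without sictrl A2) to 2319 (without siUCA1 A1) when 1 array was left out. With the slide row as a block they were 1270, and with the remaining surface trend removed 2567. That removal used each array's deviations from the mean of its own group, so it can lower the spread within groups. Of the members, 5 calls became 1 with median scaling (ELOVL6), 1 with normexp (NR1H3), 0 with no detection filter, 3 with the slide row as a block, 13 with array weights, 8 with the surface trend removed and 9 without the pair of arrays, and ranged from 2 to 6 when 1 array was left out. There were 2 without sictrl M2, sictrl A2, siUCA1 M2 or siUCA1 A2, and 3 without sictrl A1 or siUCA1 A3. The median over members was -0.030 with median scaling. GRAMD1A was 0.063 with the mean of its kept probes. The causes of these changes were not tested, except that no filter tests more transcripts and left-out arrays leave fewer samples.

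The replicate names occur in both groups. Over 15447 genes, the deviations of arrays sharing a name correlated at 0.0384 (A1), 0.278 (M2), 0.216 (A2) and 0.127 (A3). All were positive, and the lowest were for A1 and A3, the names that include the arrays with the large surface trend. These values do not exclude pairing by name. The main fit left the names out, since no label states that a shared name marks a shared experiment and the A1 value was low. With the replicate block, 3 members were called (ELOVL6, HMGCS1 and NR1H3), and the calls of SREBF2 (adjusted p = 0.0609), MSMO1 (adjusted p = 0.0558), GRAMD1A (adjusted p = 0.0572) and CDS2 (adjusted p = 0.0553) were lost.

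Of the 37 members not called, 17 changed sign in some setting and 8 were called in some setting. Dim probes such as ELOVL6 and MSMO1 are limited by the background. A planned fit on the gene names of the array design was not run, because names were taken from accessions here, and normexp used the median spot intensity.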
